A study of Mus musculus with 12 samples.

Results

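Epidermal and hair follicle keratins were followed through 12 subcutaneous tumors grown from the mouse pancreatic cancer line KCip53-1. The 10 keratins (Krt1, Krt5, Krt10, Krt14, Krt15, Krt17, Krt25, Krt27, Krt71 and Krt73) were picked by name out of the 22630 genes in the expression tables, as genes that mark skin, hair or a squamous change. They were picked with their expression in these same tumors already known, among it the large off-dox difference of Krt73, so their levels and fold changes are given as a description with no p-value, and where it is said which of them passed the limits for a call, nothing is read from it. The line was derived from a pancreatic tumor of a mouse with Ptf1a-Cre, TREp53R270H and R26rtTa/rtTa, was sorted for the dsRed reporter and had lost WT p53. All 12 tumors therefore carry the transgene, and they stand for 1 cell line. Cre was driven by Ptf1a, so only recombined pancreatic epithelium expressed rtTa, and doxycycline (dox) switched on p53R270H in those cells. Each immunocompromised NSG mouse, 8 to 10 weeks old, received 2 injections of 500000 cells in Matrigel and medium under the skin. The 4 no-dox tumors grew in mice that were never given dox, but the paper states that its cell lines had been kept in culture with dox. The 4 plus-dox tumors came from mice with 0.2 g/l dox in the drinking water for 36 days. The 4 off-dox tumors came from mice with dox for 33 days that was then removed for 3 days. Sucrose is listed for the mice of every group. The paper describes it only as the solution for dox in the water, so whether the no-dox mice drank it is unclear. An effect of sucrose was not tested. The labels do not say which tumors shared a mouse, and p-values measure only the spread between tumors and may be too small where a host was shared. The tissue was lysed whole, so RNA of any host skin, fat or muscle taken with a tumor would be part of its library.

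Keratins are the intermediate filament proteins of epithelia, and a filament is built from pairs of a type I and a type II keratin. Krt5 (type II) and Krt14 (type I) pair in the basal layer of stratified epithelia, where Krt15 is a further type I keratin. Krt1 and Krt10 pair in the suprabasal epidermis, and Krt17 is a type I keratin of hair follicles and of stressed or wounded epidermis. The inner root sheath is the cell layer that surrounds and guides the growing hair. It makes the type I keratins Krt25, Krt27 and Krt28 and the type II keratins Krt71, Krt73 and Krt74, whereas simple epithelia such as the pancreatic duct make Krt8, Krt18 and Krt19.

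The tumors held 19845923 to 33137609 counted reads. Levels are given as RPKM, reads per kilobase of exonic length and scaled to the mapped reads of the tumor, as the authors computed them, so that they can be compared between genes. A total of 3 counts, taken as the floor below which a level was not distinguished from absence, was worth 0.0331 to 0.0832 RPKM depending on the gene and tumor, and it covers counting error only. The labelled tissue showed its epithelial markers, since Krt8 ran from 318 to 973 RPKM and Krt18 from 391 to 947 RPKM. A pair of tumors, plus-dox 2 and off-dox 4, stood apart in some epithelial genes and not in others. Their Krt8 (532 and 525 RPKM) and Krt18 (608 and 752 RPKM) were inside the range of the other tumors. Ly6d, a surface protein of squamous and other epithelia, was at 10.5 RPKM in plus-dox 2 and 18.3 RPKM in off-dox 4, against 46.9 to 514 RPKM in the other tumors. Both tumors are kept throughout, and values without them are given where they matter. In bulk tissue, fewer cells of a type and less RNA per cell cannot be told apart.

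**Figure D1:**
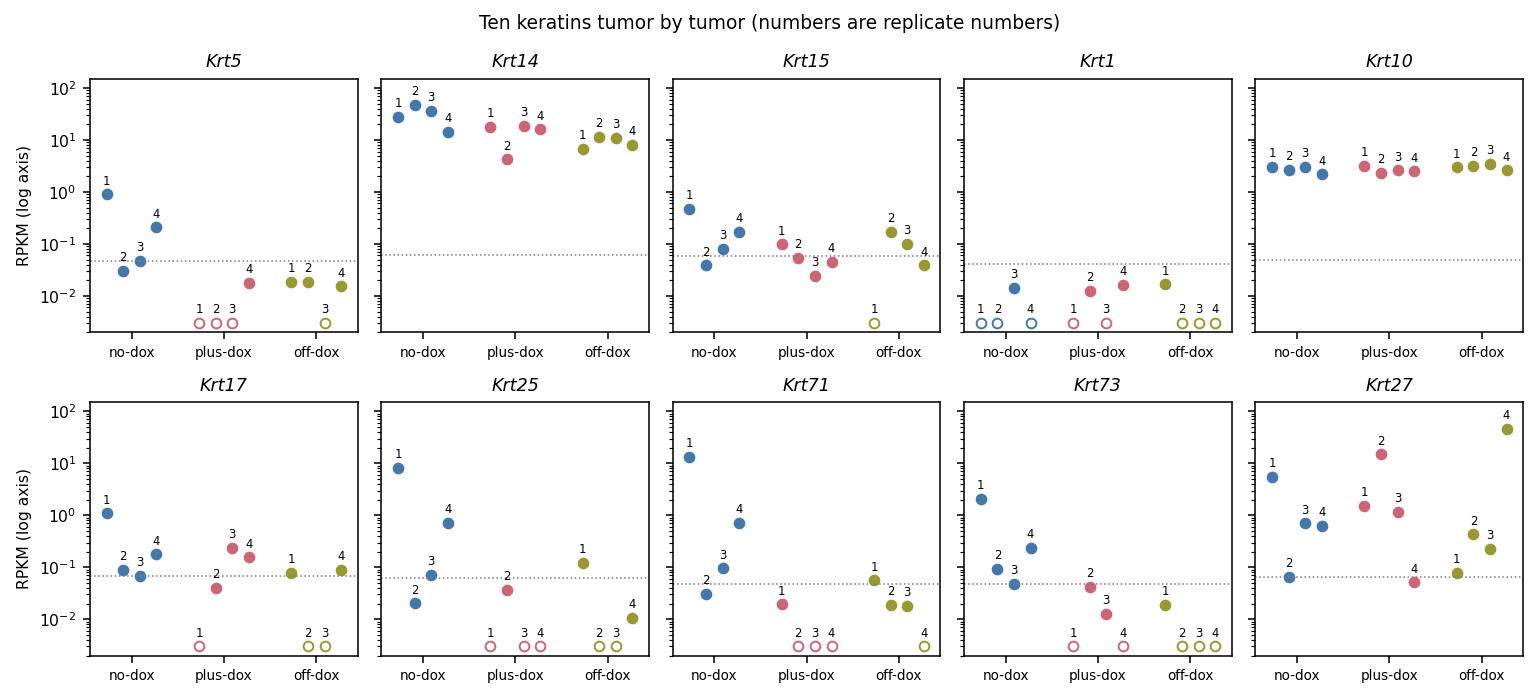
RPKM (log axis) of the 10 keratins in each tumor, by group, with the replicate number above each point. Open circles at the lower edge are tumors at 0, and the dotted line is the median RPKM of 3 counts. Krt14 and Krt10 lie above that line in all 12 tumors, Krt25, Krt71 and Krt73 are high in no-dox 1, and Krt27 is highest in off-dox 4 at 46.0 RPKM.

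Summed over the 10 keratins, the tumors differed in which keratin made up the sum rather than in having one or none. The summed RPKM was highest in no-dox 1 (62.6) and lowest in off-dox 1 (10.2). Krt14 made up 94.1% of it in no-dox 2 and 44.6% in no-dox 1, but 14.3% in off-dox 4, where Krt27 added 46.0 RPKM to the sum and Krt14 was at 8.13 RPKM, inside the off-dox range. Against the 6 simple epithelium keratins the 10 genes were a small part of the keratin message, from 0.464% of their summed RPKM in off-dox 1 to 3.87% in off-dox 4.

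Of the 4 inner root sheath keratins, Krt25, Krt71 and Krt73 were found almost wholly in a single tumor. Krt25 (type I, chromosome 11, 99177158 to 99184255 on the minus strand of mm9, 1651 exonic bases) was at 8.09 RPKM in no-dox 1, 0.716 RPKM in no-dox 4, 0.0708 RPKM in no-dox 3 and 0.0201 RPKM in no-dox 2. In the plus-dox tumors it had 2 counts in plus-dox 2 and none in the others, and in the off-dox tumors 5 counts in off-dox 1, 0.519 of a count in off-dox 4, where the deposited count is a fraction, and none in off-dox 2 and 3. No-dox 1 alone therefore held 453 of the 509 Krt25 counts of the series, in which fractions are rounded as in the other counts given.

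Krt71 (type II, chromosome 15, 101564380 to 101573528, minus strand, 2174 exonic bases) was at 13.4 RPKM in no-dox 1 and 0.720 RPKM in no-dox 4. It was at 0.0959 RPKM in no-dox 3 and 0.0306 RPKM in no-dox 2. The plus-dox group had 1 count of Krt71 in all, and the off-dox group 3, 1, 1 and 0 counts. The no-dox and off-dox tumors overlapped, because off-dox 1 at 0.0562 RPKM lay above no-dox 2.

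Krt73 (type II, chromosome 15, 101623739 to 101632763, minus strand, 2154 exonic bases) was at 2.11 RPKM in no-dox 1, 0.238 RPKM in no-dox 4, 0.0925 RPKM in no-dox 2 and 0.0484 RPKM in no-dox 3. It was at 0.0425 RPKM in plus-dox 2, 0.0126 RPKM in plus-dox 3 and 0 in plus-dox 1 and 4. Among the off-dox tumors 1 count was found in off-dox 1 and none in off-dox 2, 3 and 4. All 4 no-dox tumors thus lay above all treated tumors, but no-dox 2 and 3 did so by 6 and 3 counts against 3 counts in plus-dox 2.

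The proportions of these 3 keratins could be read in no-dox 1 and 4 only. The ratio of Krt71 to Krt25 RPKM was 1.66 in no-dox 1 and 1.01 in no-dox 4, and that of Krt73 to Krt25 was 0.260 and 0.332. The neighbours on the same gene cluster of chromosome 15 followed the same tumor. The Krt72-ps locus was at 2.40 RPKM in no-dox 1, 0.192 RPKM in no-dox 4 and 0 in the other 10 tumors, and Krt74 was seen in no-dox 1 only, at 0.0600 RPKM. Krt72-ps was not in any list and was looked up after the others had been seen. Krt2, an epidermal type II keratin that lies between Krt73 and Krt1, was at 0 in all 12 tumors.

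Other products of the hair follicle were found in the same 2 tumors. Of 69 hair genes outside the 10 keratins (3 inner root sheath keratins, 15 hair shaft keratins and 51 keratin-associated proteins, the Krtap genes that crosslink hair keratins), 24 had over 3 counts in no-dox 1 and 27 in no-dox 4, against 0 to 7 in each of the other 10 tumors. Their summed RPKM was 31.8 in no-dox 1 and 10.7 in no-dox 4, and 0.241 to 2.63 elsewhere.

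The 2 tumors did not hold the same mix. Krt35, a keratin of the hair cuticle and cortex, was at 3.56 RPKM in no-dox 1 and 0.0627 RPKM in no-dox 4. Krt28 was at 3.03 and 0.0362 RPKM. By contrast, Krt34 was at 0.129 RPKM in no-dox 1 and 0.420 RPKM in no-dox 4. Among the Krtap genes 9 had over 3 counts in no-dox 1 and 15 in no-dox 4. The most abundant, Krtap8-1, was at 6.11 RPKM in no-dox 1 and 1.96 RPKM in no-dox 4, with at most 0.141 RPKM elsewhere. Krtap7-1 was at 5.84 and 1.22 RPKM and Krtap11-1 at 1.87 and 0.241 RPKM. Krt85 was at 2.05 and 0.265 RPKM in these tumors and Krt83 at 0.746 and 0.171 RPKM, the latter with 0.276 RPKM in off-dox 2 as well.

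Follicle genes that are not keratins were also detected most broadly in no-dox 1 and 4. Of 20 such genes, all 20 had over 3 counts in no-dox 1 and 15 in no-dox 4, compared with 9 to 12 in each remaining tumor. Tchh, trichohyalin, the granule protein of the inner root sheath, was at 2.91 RPKM in no-dox 1 and 1.67 RPKM in no-dox 4, and between 0.372 and 1.28 RPKM in the others. Msx2, a homeobox factor of the hair matrix, was at 0.600 RPKM in no-dox 1 and at most 0.0771 RPKM elsewhere. S100a3, a calcium-binding protein of the hair cuticle, was at 10.9 RPKM in no-dox 1 and 1.93 to 5.57 RPKM elsewhere. Foxq1 and Lgr5, also on this list, were expressed in all tumors (2.19 to 23.7 and 2.83 to 7.14 RPKM) and did not follow Krt25.

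Pigment cell genes separated no-dox 1 from no-dox 4. Of 8 melanocyte genes, 7 had over 3 counts in no-dox 1 and exactly 3 in each of the other 11 tumors. Mlana was at 1.62 RPKM and Dct, an enzyme of melanin synthesis, at 1.17 RPKM in no-dox 1. Mlana was at 0 in no-dox 4 and at most 0.171 RPKM elsewhere, and Dct was at most 0.0358 RPKM elsewhere. Pmel was highest in no-dox 1 as well, at 0.801 RPKM against at most 0.404 RPKM. Tyr and Sox10, also on the list, did not follow. Tyr was at 0.785 RPKM in no-dox 1 and up to 0.906 RPKM elsewhere, and Sox10 was at 0.120 RPKM in no-dox 1 and up to 0.172 RPKM elsewhere. The summed melanocyte RPKM was 4.92 in no-dox 1 and 0.724 to 1.48 in the others. The part that hair follicle and pigment cell RNA plays in any group difference of these keratins was not tested.

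**Figure D2:**
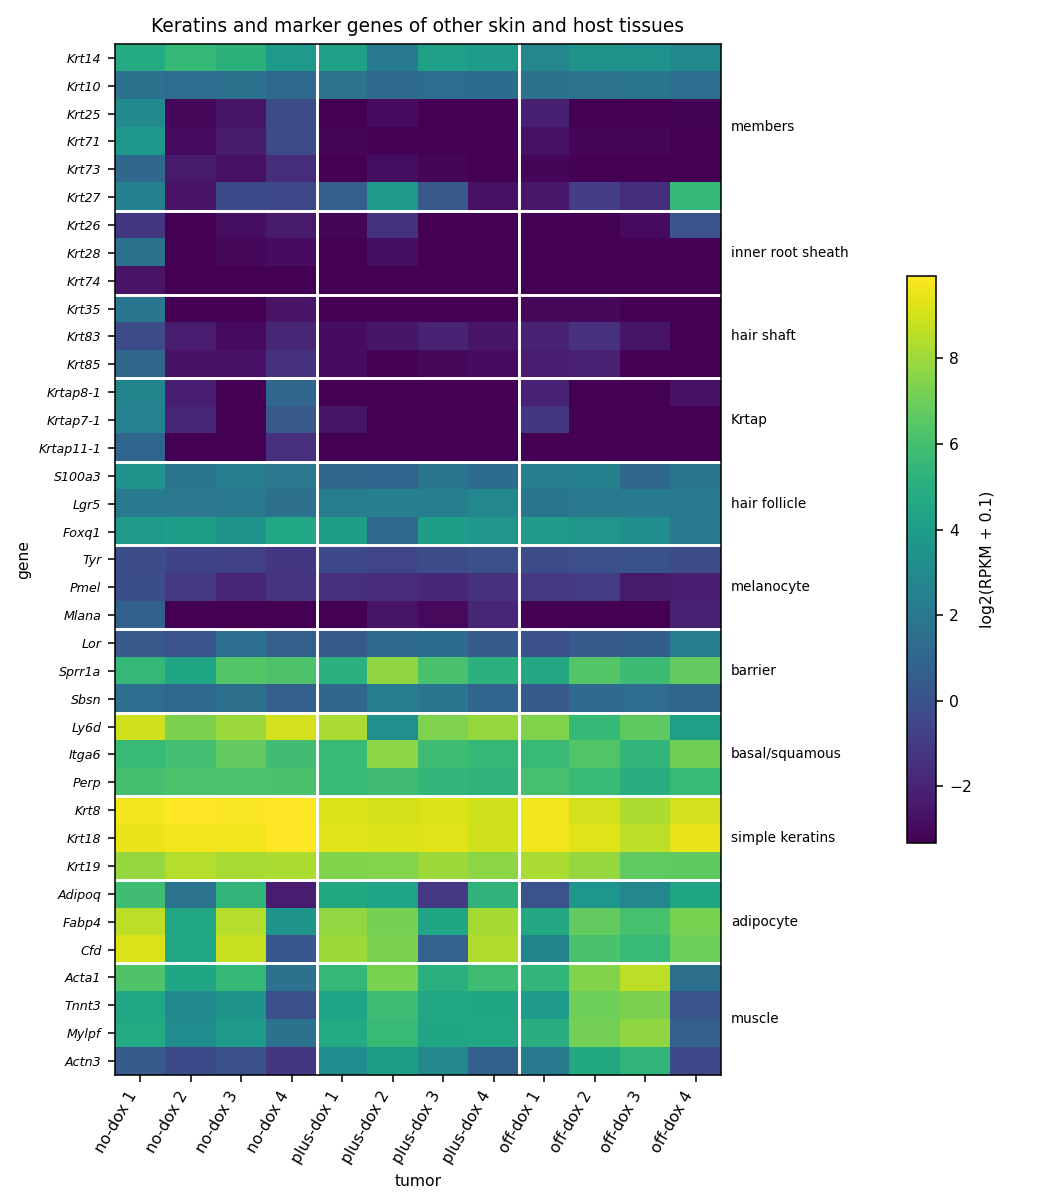
Log2(RPKM + 0.1) of 6 of the keratins and of the marker genes named by the list rule, by tumor. Rows are genes grouped by list and white lines separate lists and groups. The hair shaft, Krtap and Mlana rows are bright in no-dox 1, where Krtap8-1 reaches 6.11 RPKM, and not in off-dox 4, where Krt27 is brightest.

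Krt27, the fourth inner root sheath keratin, did not follow Krt25, Krt71 and Krt73. It lies on chromosome 11 (99206880 to 99212408, minus strand, 1539 exonic bases) between Krt26 and Krt28, within the 59.1 kb that run from Krt25 to Krt28. It was at 46.0 RPKM in off-dox 4, with 2124 counts, and at 14.9 RPKM in plus-dox 2, with 754 counts. No-dox 1 came next at 5.58 RPKM with 291 counts.

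The remaining tumors were lower. Krt27 was at 1.52 RPKM in plus-dox 1, 1.18 RPKM in plus-dox 3 and 0.0512 RPKM in plus-dox 4. It was at 0.0647, 0.700 and 0.631 RPKM in no-dox 2, 3 and 4, and at 0.0794, 0.430 and 0.227 RPKM in off-dox 1, 2 and 3. The 3 groups overlapped, and within each group 1 tumor was far above the rest. In off-dox 4 the sum of Krt25, Krt71 and Krt73 was 0.0105 RPKM, which is less than 1 read, and in plus-dox 2 it was 0.0795 RPKM.

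The relation to its neighbours changed accordingly. The ratio of Krt27 to Krt25 RPKM was 0.689 in no-dox 1 and 0.882 in no-dox 4. In plus-dox 2 the 754 counts of Krt27 stood beside 2 counts of Krt25, and in off-dox 4 the 2124 counts stood beside 0.519 of a count, both below the floor of 3 counts. Krt28, on its other side, was at 0.0410 RPKM in plus-dox 2 and 0 in off-dox 4. Krt26, the nearest gene on the Krt25 side, was at 0.947 RPKM in off-dox 4, 0.340 RPKM in no-dox 1 and 0.282 RPKM in plus-dox 2, and at most 0.0934 RPKM elsewhere. Krt26 was thus the only one of these neighbours that was highest in off-dox 4.

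The promoters of the 4 neighbours are shown because genes that lie side by side differed in the tumors where they were expressed. Each line gives the 200 bases before the gene's start on the minus strand of mm9, read 5′ to 3′, with TATAAA and, in Krt28, CTTTGA on either strand in capitals (Krt25 chr11:99184256-99184455, Krt26 chr11:99199280-99199479, Krt27 chr11:99212409-99212608, Krt28 chr11:99236218-99236417).
Krt25: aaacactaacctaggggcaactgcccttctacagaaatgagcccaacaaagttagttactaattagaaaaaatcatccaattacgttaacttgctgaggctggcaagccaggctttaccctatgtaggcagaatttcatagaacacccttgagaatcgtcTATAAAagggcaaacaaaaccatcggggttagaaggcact
Krt26: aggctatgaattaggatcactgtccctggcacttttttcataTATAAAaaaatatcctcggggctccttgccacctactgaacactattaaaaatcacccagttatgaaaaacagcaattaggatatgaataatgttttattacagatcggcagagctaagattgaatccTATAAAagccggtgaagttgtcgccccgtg
Krt27: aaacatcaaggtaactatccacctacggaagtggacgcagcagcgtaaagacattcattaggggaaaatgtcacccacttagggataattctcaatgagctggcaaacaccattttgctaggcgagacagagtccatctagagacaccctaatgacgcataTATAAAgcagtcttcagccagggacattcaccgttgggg
Krt28: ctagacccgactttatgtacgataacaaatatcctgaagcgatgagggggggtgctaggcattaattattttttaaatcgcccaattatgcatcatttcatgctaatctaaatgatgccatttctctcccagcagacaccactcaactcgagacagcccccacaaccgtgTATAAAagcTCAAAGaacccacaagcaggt

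TATAAA, the core of a TATA box, was found in all 4, with its first base at position -40 in Krt25, -158 and -30 in Krt26, -39 in Krt27 and -30 in Krt28, counted from the gene's first base. Searched on both strands of the same window, it was present in 9.70% of 22627 genes. CTTTGA, the core letters bound by Tcf and Lef factors, was found in Krt28 only, at position -21 on the opposite strand (9.88% of genes). TGANTCA, the letters bound by AP-1, was in none of the 4 (4.91% of genes). The searched motifs do not overlap each other, and a match in these windows is a description of letters.

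**Figure D3:**
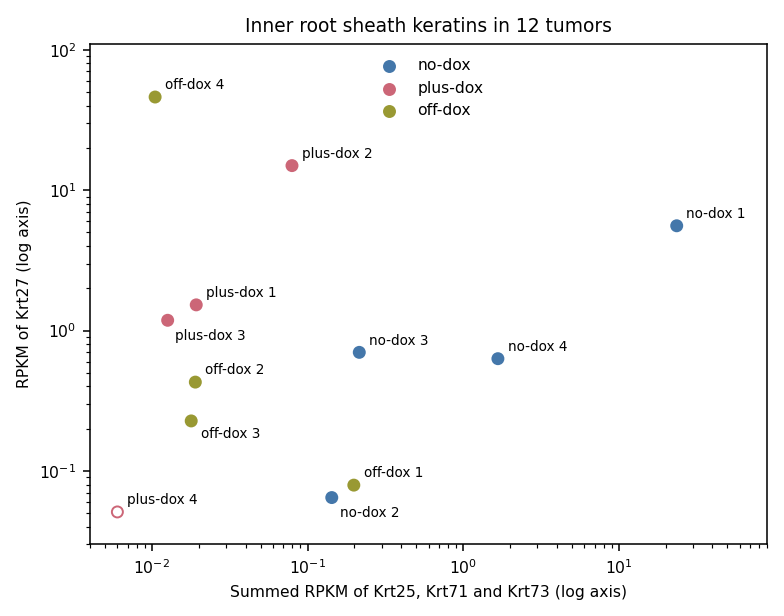
RPKM of Krt27 against the summed RPKM of Krt25, Krt71 and Krt73 in the 12 tumors, both on log axes. The open circle, plus-dox 4, has a sum of 0 and is drawn at the left edge. Off-dox 4 and plus-dox 2 are high in Krt27 at sums of 0.0105 and 0.0795, whereas no-dox 1 lies at a sum of 23.6.

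Off-dox 4 and plus-dox 2 were the tumors with the lowest Ly6d, and they also had the highest Sprr1a, a protein of the cornified envelope, the shell of dying keratinocytes. Sprr1a was at 215 RPKM in plus-dox 2 and 107 RPKM in off-dox 4, against 21.8 to 83.2 RPKM in the other tumors. Lor, loricrin, was at 5.19 RPKM and Ivl, involucrin, at 4.88 RPKM in off-dox 4, compared with at most 2.74 and 1.92 RPKM elsewhere. In plus-dox 2, Lor and Ivl were at 2.33 and 1.79 RPKM, inside the range of the rest. Of 23 barrier genes, 12 and 13 had over 3 counts in these tumors, against 9 to 13 in the others, and Flg2, Klk5 and Rptn were at 0 in all 12. The summed RPKM of the list was 232 in plus-dox 2 and 124 in off-dox 4, and 31.1 to 94.7 elsewhere, and most of it was Sprr1a. The other 22 genes summed to 17.1 RPKM in plus-dox 2 and 17.0 RPKM in off-dox 4, against 15.5 RPKM in plus-dox 3 and 6.92 to 11.6 RPKM in the remaining tumors. Single genes differed. Sbsn was highest in plus-dox 2 (4.55 RPKM, 1.30 to 3.62 RPKM elsewhere), whereas in off-dox 4 Dmkn and Krtdap were near their lowest, at 0.169 and 0.0731 RPKM. The part of these genes in the Krt27 level was not tested.

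The genes whose levels most resembled Krt27 were spread over other functions. Among 14548 genes with a mean above 0.25 RPKM, Pearson's r over the 12 tumors (log2 CPM) was 0.91 for Enpp3, a surface nucleotidase, 0.89 for Qrfp, a neuropeptide, and 0.87 for Sox2, a stem cell transcription factor. Qrfp was at 19.6 RPKM in off-dox 4, 19.0 RPKM in plus-dox 2 and at most 2.67 RPKM elsewhere. Sox2 was at 4.71 and 2.94 RPKM in these tumors and at most 0.332 RPKM elsewhere. It passed the limit of a mean above 0.25 RPKM only through these tumors, where Krt27 was highest. Nothing is read from its place. Arl4d, with r = 0.88, was nearer to Krt27 than Sox2. None of the 10 genes nearest to Krt27 was in a skin or hair list. Krt26, with a mean of 0.146 RPKM, and most hair shaft keratins and Krtap genes were below the limit of 0.25 RPKM and were not compared. The absence was therefore partly set by that limit, which applied to every keratin sum below as well.

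For the sum of Krt25, Krt71 and Krt73, 4 of the 10 nearest genes were on the hair lists. Krtap8-1 and Krtap7-1 had r = 0.95, Krt35 0.90 and Krt28 0.89. All 4 passed the limit of a mean above 0.25 RPKM only through no-dox 1, where the sum was highest as well. Their place among the nearest genes was therefore partly set by that limit, and nothing is read from it. The other 6, Mt4, a metallothionein of stratified epithelia (0.91), among them, were on no list. Mt4 also passed the limit only through no-dox 1. The split of the inner root sheath keratins into Krt27 and the rest was made after seeing the values, and these correlations rest on the few tumors with reads. For the sum of all 4 inner root sheath keratins the first 3 were Becn1 (0.84), Arl4d (0.83) and Aig1 (0.82), followed by Fam50a, Enpp3, Nmnat2, Leo1, Dctn6, Slc48a1 and D19Ertd737e (0.80 to 0.82), and none of its 10 was on a skin or hair list.

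Krt14 was the most abundant of the 10 keratins on average and was present in all tumors. It lies on chromosome 11 (100064476 to 100068824, minus strand, 1660 exonic bases). It was at 27.9, 47.7, 36.3 and 14.4 RPKM in no-dox 1 to 4, at 18.2, 4.25, 18.7 and 16.0 RPKM in plus-dox 1 to 4 and at 6.82, 11.5, 11.1 and 8.13 RPKM in off-dox 1 to 4. All off-dox tumors were below all no-dox tumors, while the plus-dox tumors overlapped with both.

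The mean level was 31.6 ± 14.0 RPKM in no-dox, 14.3 ± 6.78 RPKM in plus-dox and 9.38 ± 2.27 RPKM in off-dox tumors (SD, n = 4). The fitted log2 fold change of Krt14 was -1.72 ± 0.43 (SE) for off-dox against no-dox, -1.13 ± 0.43 for plus-dox against no-dox and -0.59 ± 0.43 for off-dox against plus-dox. The difference between off-dox and no-dox was 3.28-fold. Without no-dox 1 it was -1.78 on the log2 scale and without off-dox 4 it was -1.67, so that neither of these tumors set its size. With each tumor left out in turn it ran from -1.95 to -1.47. Of the 50-base windows in Krt14 exons, 18.0% occurred again elsewhere in mm9, and the placement of such reads by the authors is not given in the sources used here.

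Krt14 was found without its partner. Krt5 (chromosome 15, 101537501 to 101543322, minus strand, 2190 exonic bases) was at 0.894 RPKM in no-dox 1 and 0.208 RPKM in no-dox 4, and at 0.0303 and 0.0476 RPKM in no-dox 2 and 3. The plus-dox tumors had 1 count of Krt5 among them and the off-dox tumors 3. In no-dox 1 the ratio of Krt14 to Krt5 RPKM was 31.3 and in no-dox 4 it was 69.3. No-dox 2, with the highest Krt14 of all tumors, had 2383 counts of Krt14 and 2 of Krt5, and no-dox 3 had 1734 and 3.

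Krt5 was highest in no-dox 1 and 4, the tumors with hair genes, and not where Krt14 was highest. Its 4 no-dox values were all above the 8 others, but no-dox 2 and 3 were so by 2 and 3 counts against at most 1. These counts are not above the floor of 3. Summed over the group and scaled to the counted reads, Krt5 was 22.0 times lower in off-dox than in no-dox tumors (95% exact interval 7.30 to 109, counting error only) and 7.44 times lower without no-dox 1 (2.24 to 38.8).

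Krt15 and Krt17 were low and also peaked in no-dox 1. Krt15 (chromosome 11, 99993073 to 99997263, minus strand) was at 0.480 RPKM in no-dox 1 and 0.173 RPKM in no-dox 4, and between 0 and 0.168 RPKM in the other 10 tumors. Krt17 (chromosome 11, 100117531 to 100122303, minus strand) was at 1.09 RPKM in no-dox 1 and between 0 and 0.234 RPKM in all others. Krt75, a keratin of the companion layer of the follicle, was at 0.451 RPKM in no-dox 1 and at most 0.0495 RPKM elsewhere. Krt6a, a partner of Krt17 and Krt16 in stressed epidermis, had at most 0.0264 RPKM in any tumor.

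Basal and squamous genes that are not keratins included both pancreas tumor genes and genes at the edge of detection. Itgb4 and Itga6, the subunits of the hemidesmosome integrin, were at 26.2 to 39.7 and 41.4 to 194 RPKM, and Perp, a desmosome protein that p53 and p63 induce, at 31.1 to 73.1 RPKM. Trp63, the p63 gene that stratified epithelia require, was at 0.0275 to 0.214 RPKM, highest in no-dox 1. Dsc3, a desmosomal cadherin of basal keratinocytes, was at 0.392 RPKM in no-dox 1 and at most 0.0102 RPKM elsewhere. Col17a1 was at most 0.112 RPKM. The genes that resembled the basal sum of Krt5, Krt14 and Krt15 most were Dpcd (r = 0.91), Ctps and 1110054O05Rik (both 0.88), which ran within a 2-fold range over the tumors. Stmn1, Cpne4, Mrps18a, Zfp35, Ypel1, 2410091C18Rik and Zfp184 followed (0.84 to 0.87), and none of the 10 was on a skin or hair list.

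Krt10 was nearly level across the 12 tumors and had no partner either. It lies on chromosome 11 (99246569 to 99250678, minus strand, 2093 exonic bases), next to Krt28. It was at 3.02, 2.63, 3.07 and 2.17 RPKM in the no-dox tumors, 3.23, 2.33, 2.61 and 2.50 RPKM in the plus-dox tumors and 2.96, 3.19, 3.44 and 2.59 RPKM in the off-dox tumors. The groups overlapped, with means of 2.73 ± 0.417, 2.67 ± 0.392 and 3.05 ± 0.361 RPKM (SD, n = 4). The fitted log2 fold change was 0.19 ± 0.16 (SE) for off-dox against no-dox and -0.02 ± 0.16 for plus-dox against no-dox.

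Krt1 (chromosome 15, 101675857 to 101681217, minus strand, 2447 exonic bases) had 4 counts in all 12 tumors, at most 1 in any of them, and was below the 10 counts needed for the fit. Krt2 and Krt77, further epidermal type II keratins, were at 0 throughout. The exons of Krt10 share 146 of their 2094 bases (6.97%) with Gm11940, a transcript on the opposite strand, and the libraries did not keep strand, so that reads of the 2 cannot be told apart there. None of the other 9 keratins overlapped another gene's exons in the annotation. The genes most like the sum of Krt1 and Krt10 were BC003965 and Gm561 (both r = 0.95) and Commd3 (0.91), followed by Lsm5, Mrps33, 1810022K09Rik, 2010107E04Rik, Chchd1, Ndufs4 and Rpa3 (0.87 to 0.91), of which Mrps33, Chchd1 and Ndufs4 encode mitochondrial proteins.

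**Figure D4:**
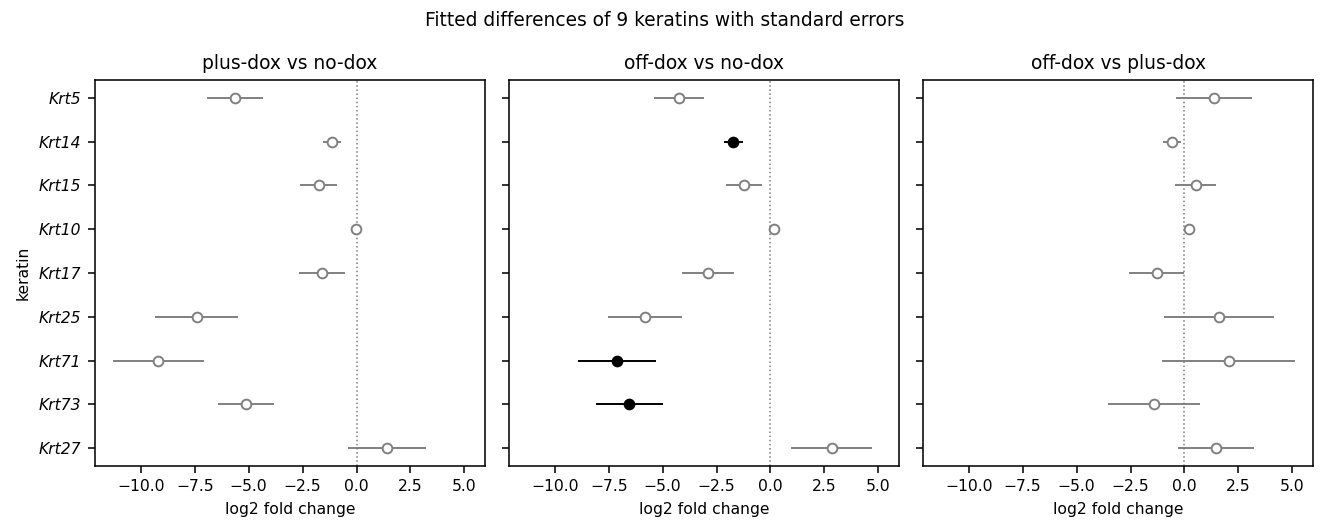
Log2 fold changes of 9 keratins (Krt1 was not fitted) in 3 comparisons, with standard errors as bars. Filled points pass the limits used to call a gene. Krt14 has the narrowest of the filled bars, at -1.72 ± 0.43, and Krt10 lies at 0 in all 3 panels to within 0.21.

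In the comparison of off-dox with no-dox tumors, 3 of the 9 fitted keratins passed the limits for a call (adjusted p below 0.1 over all genes, a change above 1.5-fold and a mean above 0.25 RPKM), which 1.34% of all tested genes did in either direction. They were Krt14, Krt71 and Krt73, all lower off dox as were 0.307% of all tested genes, and nothing is read from that count because the keratins were picked with this contrast known. The fitted log2 fold change was -7.13 ± 1.80 (SE) for Krt71, -6.54 ± 1.55 for Krt73 and -5.82 ± 1.70 for Krt25. Without no-dox 1 these differences became -3.57, -4.32 and -2.87, and without no-dox 1 and 4 they became -1.41, -3.45 and -0.21. Krt27 had a log2 fold change of 2.85 ± 1.88, which became -2.78 without off-dox 4.

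No call of a keratin was kept when any single no-dox tumor was left out. Likewise none was kept without off-dox 2, 3 or 4, or without plus-dox 3 or 4. The plus-dox tumors enter this comparison only through the count filter, the scaling and the estimate of spread, which all tumors share. With all tumors kept, the smallest adjusted p of any gene in this comparison was 0.0786 (edgeR). Every call therefore lay near the limit of 0.1. The number of all genes called also varied with the tumor left out, so nothing is read from the loss of keratin calls. The log2 fold change of Krt14 stayed between -1.95 and -1.47 in these fits. The groups did not overlap for Krt5, Krt14 and Krt73, and they did not overlap, with off-dox lower, for 6.40% of all tested genes. For Krt5 this rested on 2 counts in no-dox 2 against at most 1 in an off-dox tumor.

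In the comparison of plus-dox with no-dox tumors no keratin was called, and 0% of all tested genes were. By DESeq2 with unmoderated fold changes, 128 genes were called in this comparison, Krt25, Krt71 and Krt73 among them. With moderated ones it was 90 genes, and Krt73 alone of the keratins. At an unadjusted p below 0.05 in edgeR there were 2400 genes. Fitted log2 fold changes ran from -9.18 ± 2.12 (SE) for Krt71 to 1.395 ± 1.806 for Krt27, and that of Krt27 became -0.87 without plus-dox 2 and 3.24 without no-dox 1. By summed counts Krt71 was 917 times lower in plus-dox than in no-dox tumors (95% exact interval 164 to 36240), and 77.6 times lower without no-dox 1 (13.4 to 3110). These intervals cover counting error only and not the spread between tumors, and they rest on 1 count in the plus-dox group and on 987 of 1053 no-dox counts in no-dox 1. The groups did not overlap for Krt5, Krt71 and Krt73 and did not overlap, with plus-dox lower, for 3.46% of all tested genes. For Krt5 and Krt71 this rested on 2 counts in no-dox 2 against at most 1 in a plus-dox tumor.

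In the comparison of off-dox with plus-dox tumors no keratin was called, and again 0% of all tested genes were. By DESeq2 with unmoderated fold changes, 6 genes were called and no keratin of the 10, and 537 genes had an unadjusted p below 0.05 in edgeR. All 9 fitted keratins overlapped between these groups, which 1.49% of all tested genes did not. The no-dox tumors are shared by the first 2 comparisons, so their fold changes are not independent of each other.

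Genes of the skin and hair lists outside the 10 keratins could be tested, though their lists were drawn up with earlier results known. Of 144 such genes 88 were tested, and the main edgeR fit called none of them in any comparison. Of all tested genes it called 1.34% for off-dox against no-dox. It called 0% for plus-dox against no-dox and for off-dox against plus-dox. The absence of calls among the 88 is near these shares, and nothing is read from it. The median log2 fold change of the 88 genes was -0.84 for off-dox against no-dox and -0.90 for plus-dox against no-dox, where the median of all tested genes was 0.01 in both. These medians include hair genes that had enough counts for the fit only through no-dox 1 and 4, where they were high, so part of their size was set by the filter. By DESeq2 with unmoderated fold changes, Krtap8-1 was called in both of these comparisons and Lgr5, a stem cell receptor, for plus-dox against no-dox. The 2 genes went opposite ways there. Their log2 fold changes in edgeR were -8.10 ± 2.20 (SE) for Krtap8-1 and 0.60 ± 0.16 for Lgr5. With moderated DESeq2 fold changes neither was called.

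No hair gene was called in the main edgeR fit. Of 15 hair shaft keratins 12 were tested, and of 51 Krtap genes 13. Without no-dox 1 and 4, a setting added after seeing the data, 6 and 2 of them still had enough counts, so no median is given for these lists. Krtap8-1 had a log2 fold change of -5.13 ± 1.67 (SE, adjusted p = 0.15) for off-dox against no-dox in edgeR.

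For off-dox and for plus-dox against no-dox in turn, the median log2 fold change of 15 barrier genes was 0.28 and 0.35, for 20 basal and squamous genes -0.58 and -0.99, for 19 follicle genes that are not keratins -0.72 and -0.63, and for 7 other epidermal and mucosal keratins -0.19 and -0.01. Without no-dox 1 and 4 the medians became 0.16 and -0.11 for the follicle genes, -0.34 and -0.24 for the basal genes and 0.69 and 0.60 for the barrier genes. No test of a difference between lists was run. Krt13, a mucosal keratin, was at 0.0673 RPKM in no-dox 1, its lowest level, and up to 0.579 RPKM in no-dox 2. Krt16, a partner of Krt6a, and Krt80, a keratin of many epithelia, were at 0.156 to 1.97 and 1.35 to 3.46 RPKM over the tumors. For the 9 sebaceous gland genes, 7 of which were tested, the medians were -0.38 and -0.29 with no call, and no median is given for the 7 tested melanocyte genes, of which 3 had enough counts without no-dox 1 and 4. Of the sebaceous genes, Cidea was at 0.918 to 24.9 RPKM, lowest in plus-dox 2 and off-dox 4, and Awat2 and Far2 were at 0.192 to 0.666 and 0.396 to 1.08 RPKM.

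Adipocyte and skeletal muscle genes differed widely between no-dox 1 and 4, the 2 tumors highest in summed hair genes. The summed RPKM of 7 adipocyte genes was 1100 in no-dox 1, the highest of all tumors, but 14.2 in no-dox 4, the lowest. For 11 skeletal muscle genes it was 194 in no-dox 1 and 11.1 in no-dox 4, against 901 and 1394 in off-dox 2 and 3, and 1 of the 11, Actn3, was called higher in off-dox than in no-dox tumors (log2 fold change 4.53 ± 1.09, SE, edgeR adjusted p = 0.088). The simple epithelium keratins, among them Krt19 at 98.1 to 352 RPKM, summed to 1962 and 2465 RPKM in the same 2 no-dox tumors and to 919 to 2466 RPKM in the rest. Adipoq, Fabp4 and Cfd were each highest in no-dox 1 (57.3, 391 and 579.6 RPKM) and lowest in no-dox 4 (0.109, 11.6 and 1.11 RPKM). Acta1, Tnnt3 and Mylpf were each highest in off-dox 3 (388, 158 and 208 RPKM). Krt27 was highest in off-dox 4, where the muscle sum was 13.6 and the adipocyte sum 318, and second in plus-dox 2, where these sums were 520.5 and 346. The part of host tissue in these levels was not tested.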

How the data were processed

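Poly(A) RNA of 12 whole tumors was sequenced without strand information as 50-base single reads. Per the labels and the methods, the authors aligned reads to mm9 with TopHat (version 1.4.1) and condensed RefSeq to 1 unstranded model per gene. The deposited expected counts are their coverage of each gene's exonic span in reads, partly fractional and not normalized. The deposited RPKM values were computed by the authors per kilobase and per total of mapped reads. Whether reads with several positions were kept is not given in the sources used here.

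Counts were rounded. Groups were taken from the sample titles. The full genotype of the line is not reported here. Genes with at least 10 counts over the 12 tumors (17561) were fitted with edgeR (version 4.0.16, TMM, quasi-likelihood test, legacy form) in 1 fit of the 3 groups, with Benjamini-Hochberg adjustment. A call needed an adjusted p below 0.1, a change above 1.5-fold, a mean above 0.25 RPKM and a length above 250 bases. DESeq2 (version 1.42.0), RLE scaling, other filters, the 8 tumors compared, a replicate block and leaving out tumors were alternatives. The fit was checked on simulated counts. Likeness is Pearson's r of log2 CPM (prior count 2) over the 12 tumors, and the text names the 10 keratins, the 3 genes of each list highest in mean RPKM, any called list gene and the 10 genes most like each layer, with further genes chosen after their values were seen. The keratins and the lists were chosen with earlier results of these data known. Flg, Krt72 and Si, 3 names on the lists, were not analysed here. Sequences, 50-base windows and overlapping exons were read from the mouse genome NCBIM37 (mm9) and its GENCODE annotation. Depth per tumor stands with the results. No 2 tumors of a group agreed within sampling noise.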

Additional observations from a re-analysis of the deposited data

Results flagged for a closer look

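In a group of 4 tumors a value was marked when its gap to the nearest other tumor exceeded Dixon's 95% critical share of the group's range, which chance does in about 1 of 20 groups of normal values. Counts near 0 are not such values, and the keratins were picked with their levels known, so these flags are a description. Of 30 groups (10 keratins in 3 groups) 14 had such a value. In no-dox 1 it was found for Krt17 (1.09 RPKM), Krt25 (8.09 RPKM), Krt27 (5.58 RPKM), Krt71 (13.4 RPKM) and Krt73 (2.11 RPKM), where the nearest other no-dox tumor had 0.179, 0.716, 0.700, 0.720 and 0.238 RPKM. These flags are not independent, since they come from 1 tumor. Krt27 was marked in the other groups as well, at 14.9 RPKM in plus-dox 2 (nearest 1.52) and at 46.0 RPKM in off-dox 4 (nearest 0.430).

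The remaining 7 rest on 1 to 5 counts and lie near the detection floor. In 6 of them the other 3 tumors were at 0, so that any read set the flag. They are Krt25 at 0.123 RPKM in off-dox 1 (5 counts), Krt25 at 0.0370 RPKM in plus-dox 2 (2 counts) and, with 1 count each, Krt1 at 0.0142 RPKM in no-dox 3 and 0.0166 RPKM in off-dox 1, Krt5 at 0.0180 RPKM in plus-dox 4, Krt71 at 0.0193 RPKM in plus-dox 1 and Krt73 at 0.0189 RPKM in off-dox 1.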

How the results depend on the processing

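The calls of off-dox against no-dox tumors depended on the fit. The 235 genes and 3 keratins called there became 615 and 4 with DESeq2 and unmoderated fold changes, 396 and 2 with moderated ones, 122 and 1 without a filter on low counts, 365 and 1 with at least 10 counts in every tumor, 3 and 0 with only the 8 tumors compared, 0 and 0 at an adjusted p below 0.05, 471 and 2 without plus-dox 2 and off-dox 4, and 0 and 0 without no-dox 1 and 4 (added after seeing the data). With the replicate number as a replicate block it was 0 genes and 0 keratins. The labels give no shared animal or day behind these numbers, and the deviations of same-numbered tumors correlated at -0.09 on average, against 0.04 for other numbers, with 2 of 12 tumors nearest to their own number. Leaving out 1 tumor gave 0 to 789 genes, 0 to 4 keratins and 0 to 1 skin and hair genes. In plus-dox against no-dox, 0 genes became 128 with unmoderated and 90 with moderated DESeq2, with 3 and 1 keratins and 2 and 0 skin and hair genes, and 0 to 3 genes when 1 tumor was left out (3 without plus-dox 1). In off-dox against plus-dox they gave 6 and 4 genes, and 0 to 1 genes when 1 tumor was left out (1 without off-dox 1). The 1 skin or hair gene called for off-dox against no-dox was Krtap8-1 with unmoderated DESeq2 and with a newer form of the quasi-likelihood fit, Ly6d without plus-dox 2, alone or together with off-dox 4, and Perp without off-dox 1.

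No called keratin changed sign under any setting run. Of 566 recomputed fold changes of the keratins, 504 moved by less than the spread between replicates and 62 by more. Of the 10 genes most like each layer, Spearman's rho shared 2 for the basal sum and 3 for the inner root sheath sum, and none of these 2 lists was shared without plus-dox 2 and off-dox 4. Depth limits Krt1, Krt5, Krt15, Krt17, Krt25, Krt71 and Krt73, which had 0 to 13 counts in each plus-dox and off-dox tumor. The cause of these changes was not tested.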

Other observations

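Krt20, an intestinal and gastric type I keratin that lies beyond Krt10 and Krt12 on chromosome 11, was at 2.28 RPKM in plus-dox 2 and 8.92 to 33.4 RPKM in the other tumors, and so was lowest in the tumor second highest for Krt27. In off-dox 4, the tumor highest for Krt27, it was at 12.1 RPKM. Krt12, a keratin of the cornea, was at 0.00520 to 0.589 RPKM and lowest in no-dox 1, the tumor highest for Krt25. These values were chosen after the data had been seen.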
